A study of Oryza sativa with 9 samples.

Results

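The genes described here encode the enzymes of the last steps of ethylene biosynthesis in rice, 4 ACC synthases (ACS1, ACS2, ACS5 and ACS6) and the ACC oxidases ACO1, ACO3, ACO4, ACO5 and ACO7. They were picked out of the table by locus name. Of these 9 genes, 8 were found among the 38652 entries of the deposited expression table, and ACO4 (LOC_Os11g08380) was not analysed here. The plants were IR64, an indica rice that does not tolerate submergence and lacks the Sub1A locus. Seedlings aged 20 days were sprayed with 25 mL of gibberellic acid at 100 mg/L (GAT), of paclobutrazol at 200 mg/L (PBT), or of the 0.1% solvent alone (Control). They went under 100 cm of water 2 days later and stayed there for 4 days before leaf RNA was sequenced. Each group had 3 libraries, which the study calls biological triplicates. All 3 groups were submerged, so the comparisons below measure the sprays under water and not submergence itself.

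Ethylene is made in plants from methionine through S-adenosylmethionine. ACC synthase turns S-adenosylmethionine into ACC, commonly the rate-limiting step, and ACC oxidase turns ACC into ethylene with the help of oxygen, iron and ascorbate. Ethylene diffuses slowly out of submerged organs and builds up there, and in rice shoots it acts with gibberellin on underwater elongation. Gibberellic acid is a gibberellin, and paclobutrazol blocks an early oxidation step in gibberellin biosynthesis.

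Expression was given as FPKM, fragment counts scaled to transcript length and to the size of the library, a scale on which genes can be compared because it allows for transcript length. Summed FPKM ranged from 432165 to 471800 per library, between 14322 and 17529 entries per library were listed at 0, and the read number behind a value is unknown. In 4 of the 9 single-library files the values belonged to another library of the table, 1 of them from another group, so group names were taken from the table. By the table's names, the lowest correlation within a group was 0.867 and the highest between groups was 0.859, over 22946 entries that are not independent replicates. The labelled tissue was checked with 5 leaf genes, whose summed FPKM lay between 18280 and 19190 in Control libraries, between 8524 and 8772 in GAT and between 11520 and 12280 in PBT. One of them, the chlorophyll-binding protein gene LOC_Os01g41710, was listed at 0 in PBT replicate 2, so a listed 0 elsewhere need not mean that no transcript was present. The loci taken for the root genes RCc3 (LOC_Os02g37190) and Lsi1 (LOC_Os02g51110) were not absent, at 0.615 to 9.50 and 15.9 to 27.2 FPKM. Their deposited descriptions do not name these genes.

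Sequences are shown for ACS1 and ACO7, whose calls below held in all 19 refits tried and for which the study designed qRT-PCR primers. ACS1 (LOC_Os03g51740) is named to chromosome 3 and ACO7 (LOC_Os01g39860) to chromosome 1. All 4 primers were 20 bases long with a GC content of 50.0% to 55.0%, and each is written 5′ to 3′.
ACS1 forward: aggagtggctggagaagaac
ACS1 reverse: cctctctgctccgacatgaa
ACO7 forward: gaggaggtgaagagcttcgt
ACO7 reverse: aggtcggaggcgtagaattt

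In the solvent control the members spanned a wide range of expression. ACO3 (27.8 ± 4.26 FPKM, SD, n = 3) and ACS6 (22.7 ± 18.1) were the most abundant. ACO5 followed at 9.95 ± 8.44, then ACO1 at 3.22 ± 1.91, ACS1 at 3.07 ± 0.794, ACO7 at 2.24 ± 0.666, ACS5 at 1.40 ± 0.845 and ACS2 at 0.847 ± 0.406. Each neighbouring pair in this order differed by less than the larger of its SDs, except ACS1 and ACO7, which differed by slightly more. In the deposited annotation, 6 of the 8 members carried the GO term for ethylene biosynthesis, ACS6 carried 2 aminotransferase terms in place of it, and ACO3 had no annotation.

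**Figure D1:**
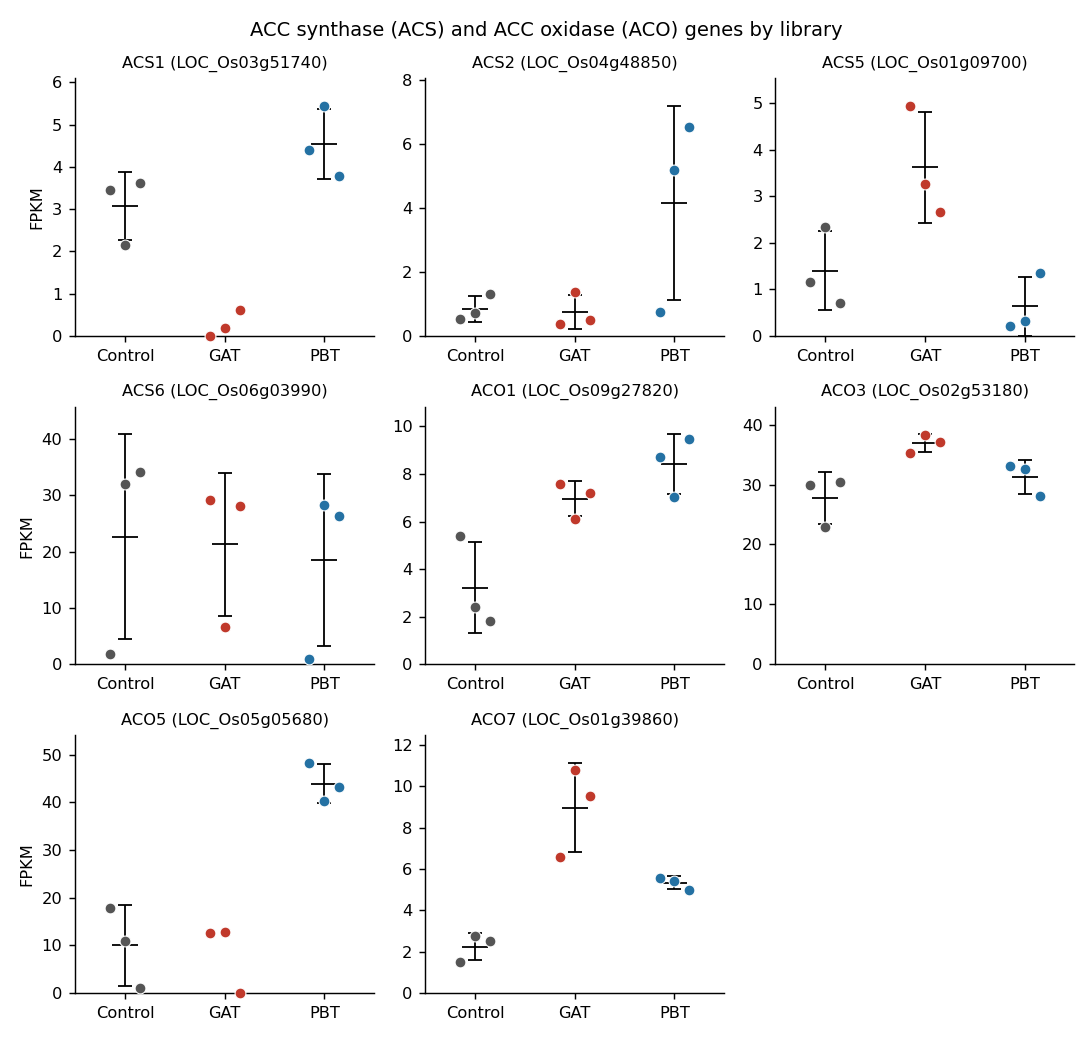
FPKM of the 8 members in each library, with replicates 1, 2 and 3 from left to right in each group. Horizontal marks and bars give the mean and SD (n = 3) except where a library was listed at 0, and axes start at 0, where bars are cut. ACS1 was low in all 3 GAT libraries, ACO7 was highest in GAT, and ACO5 was at 40.3 to 48.2 in PBT.

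Differences were tested with limma on log2(FPKM + 1), and DEGs were genes that differed by 1 or more on the log2 scale, in either direction, with adjusted p below 0.05. The pseudocount of 1 makes log2 fold changes smaller than the change in FPKM for low genes. All 8 members had a mean of at least 0.5 FPKM and were tested, among 22946 entries over which p-values were adjusted. In GAT/Control, ACO7 was upregulated and ACS1 was downregulated, so 2 of 8 members were DEGs, beside 8.42% of all entries (4.71% up and 3.72% down). In PBT/Control, ACO1 was the single DEG and was upregulated, beside 4.34% of all entries (2.87% up and 1.47% down). In PBT/GAT, ACS1 was upregulated and ACS5 was downregulated, beside 6.30% of all entries (3.48% up and 2.82% down). Without the fold limit, 2 members passed in each comparison, beside 12.0%, 6.37% and 9.37% of all entries. The 2 comparisons with Control share the Control libraries, and PBT/GAT shares a group with each of them. Leaf RNA is a mixture, in which fewer cells of a type and less RNA per cell cannot be told apart.

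**Figure D2:**
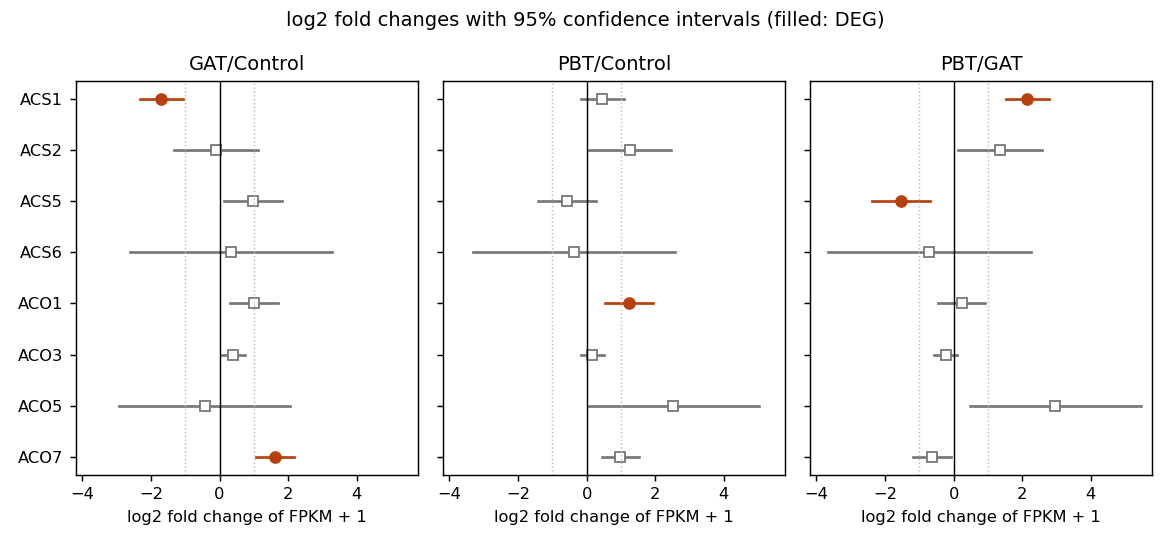
log2 fold changes of FPKM + 1 for the 8 members (rows) in the 3 comparisons (panels), with 95% confidence intervals from limma; filled circles are DEGs, open squares are not, and dotted lines mark a log2 fold change of 1 in either direction. The widest intervals belong to ACS6 and ACO5, and ACS1 has intervals away from 0 in GAT/Control and PBT/GAT.

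ACS1 encodes an ACC synthase, so its product makes ACC. It was at 3.45, 2.16 and 3.61 FPKM in Control replicates 1 to 3, at 0, 0.185 and 0.617 in GAT, and at 4.40, 5.44 and 3.78 in PBT. Every GAT library lay below every other library, and every PBT library lay above every Control library. ACS1 was downregulated in GAT/Control (log2 fold change -1.69, SE 0.27, limma adjusted p = 0.00463). It was upregulated in PBT/GAT (2.15, SE 0.27, limma adjusted p = 0.00199). In PBT/Control the log2 fold change was 0.45 with a 95% interval of -0.17 to 1.08 (limma adjusted p = 0.430), so that difference did not pass the test. Both calls of ACS1 remained without GAT replicate 1, the library listed at 0, with log2 fold changes of -1.54 (limma adjusted p = 0.0174) and 1.99 (limma adjusted p = 0.00842).

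ACS5 encodes an ACC synthase known in deepwater rice to be induced in submerged internodes. It was at 1.17, 2.34 and 0.701 FPKM in Control, at 4.94, 3.26 and 2.66 in GAT, and at 0.224, 0.327 and 1.36 in PBT. The order of the groups was the opposite of that for ACS1: GAT was above both other groups in all libraries, and PBT overlapped with Control. Mean expression was 5.67-fold lower in PBT than in GAT, at 0.638 ± 0.629 against 3.62 ± 1.18 (SD, n = 3). ACS5 was downregulated in PBT/GAT (log2 fold change -1.53, SE 0.37, limma adjusted p = 0.0380), and leaving out 1 library at a time kept this call in 3 of 9 fits. It was lost without Control replicate 1 (limma adjusted p = 0.0590), without GAT replicate 1 (0.107), 2 (0.0879) or 3 (0.0633), and without PBT replicate 1 (0.112) or 2 (0.117). In GAT/Control the log2 fold change was 0.97 (95% interval 0.12 to 1.82, limma adjusted p = 0.145) and in PBT/Control it was -0.56 (-1.41 to 0.29, limma adjusted p = 0.483).

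ACS2, an ACC synthase, was at 0.523, 0.716 and 1.30 FPKM in Control and at 0.370, 1.36 and 0.509 in GAT. In PBT it was at 0.751, 5.19 and 6.53, so replicate 1 lay within the Control range and the other 2 libraries lay above all libraries of Control and GAT. With all libraries the log2 fold change was 1.25 in PBT/Control (95% interval 0.03 to 2.48, limma adjusted p = 0.241). ACS2 was then not called. Without PBT replicate 1 it became a DEG, at 1.91 for PBT/Control (limma adjusted p = 0.0248) and at 2.01 for PBT/GAT (limma adjusted p = 0.0172). With all libraries the PBT/GAT value was 1.35 (limma adjusted p = 0.168), and the GAT/Control value was -0.10 (limma adjusted p = 0.941).

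ACS6 was the most abundant member of its family in 7 of the 9 libraries and the most variable within groups. It was at 1.81, 32.0 and 34.2 FPKM in Control, at 29.1, 6.64 and 28.1 in GAT, and at 0.923, 28.4 and 26.4 in PBT. One library of each group was far below the other 2, and the groups overlapped in every comparison. The log2 fold change was 0.34 for GAT/Control, -0.36 for PBT/Control and -0.71 for PBT/GAT (limma adjusted p = 0.909, 0.928 and 0.803). The interval in GAT/Control ran from -2.61 to 3.29, so a difference of that size could not be detected.

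ACO7 encodes an ACC oxidase, which forms ethylene from ACC. It was at 1.48, 2.73 and 2.50 FPKM in Control, at 6.59, 10.8 and 9.52 in GAT, and at 5.58, 5.42 and 4.97 in PBT. No groups overlapped, and their order was Control, PBT and GAT. Mean expression was 4.01-fold higher in GAT than in Control, and ACO7 was upregulated (log2 fold change 1.62, SE 0.24, limma adjusted p = 0.00292). In PBT/Control it was past the p limit but just under the fold limit (0.99, SE 0.24, limma adjusted p = 0.0475). The difference in PBT/GAT was -0.63 (95% interval -1.18 to -0.09, limma adjusted p = 0.151). The paper lists ACO7 and ACS1 among ethylene genes lowered in GAT/Control and not changed in PBT/Control. For ACO7 the GAT/Control direction found here was the opposite, while for ACS1 it was the same. In PBT/Control neither gene was a DEG here, although ACO7 was past the p limit. The paper also reports that most DEGs it checked by qRT-PCR had the pattern of its sequencing, and its text gives no values for ACO7. The reason for the difference in ACO7 was not tested.

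ACO1 (LOC_Os09g27820, named to chromosome 9) encodes an ACC oxidase. It was at 5.40, 2.43 and 1.82 FPKM in Control, at 7.58, 6.13 and 7.18 in GAT, and at 8.72, 7.04 and 9.47 in PBT. GAT and PBT each lay above Control, and they overlapped with each other. ACO1 was 2.61-fold higher in PBT than in Control by group means (log2 fold change 1.24, SE 0.30, limma adjusted p = 0.0475). This call remained in 1 of 9 fits with a library left out, the one without Control replicate 1 (1.59, limma adjusted p = 0.00817), and in the other 8 the adjusted p ran from 0.0727 to 0.145. The GAT/Control value was 1.00 (limma adjusted p = 0.0685), and without Control replicate 1 it became a DEG (1.35, limma adjusted p = 0.00874). In PBT/GAT the difference was 0.24 (95% interval -0.45 to 0.92, limma adjusted p = 0.699).

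ACO3 (LOC_Os02g53180) was the ACC oxidase gene with the highest mean among those described in Control. It was at 30.0, 22.8 and 30.4 FPKM in Control, at 35.3, 38.2 and 37.1 in GAT, and at 33.1, 32.6 and 28.0 in PBT. The GAT libraries were all above the others, and PBT overlapped with Control. Its log2 fold changes were 0.41, 0.17 and -0.23 (limma adjusted p = 0.131, 0.592 and 0.412).

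ACO5 (LOC_Os05g05680), also an ACC oxidase gene, had the highest values in the 3 PBT libraries. It was at 17.8, 11.0 and 1.05 FPKM in Control, at 12.6, 12.7 and 0 in GAT, and at 48.2, 40.3 and 43.2 in PBT. All PBT libraries lay above all others, while Control and GAT each held 2 libraries over 10 FPKM and 1 near or at 0. The log2 fold change was 2.53 in PBT/Control (95% interval 0.03 to 5.04, limma adjusted p = 0.247) and 2.97 in PBT/GAT (0.46 to 5.48, limma adjusted p = 0.143), so neither was called. Leaving out Control replicate 3 gave 1.58 in PBT/Control (limma adjusted p = 0.520), and leaving out GAT replicate 3 gave 1.71 in PBT/GAT (limma adjusted p = 0.287). Without GAT replicate 3, the PBT/Control value was still 2.53, with a limma adjusted p of 0.105, and was not called either. In GAT/Control the difference was -0.44 (95% interval -2.94 to 2.07, limma adjusted p = 0.853).

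Values of the members did not overlap between groups for 5 of 8 members (62.5%) in GAT/Control, 4 of 8 (50%) in PBT/Control and 5 of 8 (62.5%) in PBT/GAT. Over all tested entries the shares were 29.5%, 26.3% and 30.0%. By direction, GAT lay above Control for 4 members (16.8% of all entries) and below it for ACS1 (12.8%). PBT lay above Control for 4 members (12.9%) and below it for 0 (13.4%). PBT lay above GAT for ACS1 and ACO5 (12.6%) and below it for 3 members (17.4%). The median log2 fold change over the members was 0.38, 0.72 and 0.000849, beside 0.03, -0.04 and -0.07 over all entries. Over the 4 ACC oxidase genes it was 0.71, 1.11 and 0.000849, and over the 4 ACC synthase genes 0.12, 0.05 and 0.32. Summed leaf marker expression, given above, was lower in both sprayed groups than in Control and was lowest in GAT. The ACC oxidase median was 0.71 in GAT/Control and larger, at 1.11, in PBT/Control. The part of the leaf marker difference in the ACC oxidase differences was not tested.

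Summed over the 4 ACC oxidase genes described, expression was 54.7, 39.0 and 35.8 FPKM in Control, 62.1, 67.9 and 53.8 in GAT, and 95.7, 85.3 and 85.6 in PBT. PBT lay above all other libraries, while GAT overlapped with Control through GAT replicate 3 and Control replicate 1. The make-up of the sum differed: ACO5 held 49.3 ± 1.86% of it in PBT but 21.2 ± 16.0% in Control (SD, n = 3), and ACO3 held 35.2 ± 2.78% in PBT, 66.1 ± 16.4% in Control and 60.7 ± 7.14% in GAT. The ACC synthase sum followed ACS6, with 6.96 to 39.8 FPKM in Control libraries, 11.5 to 34.4 in GAT libraries and 6.30 to 39.3 in PBT libraries, and the groups overlapped. Without ACS6 it was 5.14, 5.22 and 5.61 FPKM in Control, 5.31, 4.81 and 3.78 in GAT, and 5.37, 11.0 and 11.7 in PBT, with PBT replicate 1 within the Control range.

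**Figure D3:**
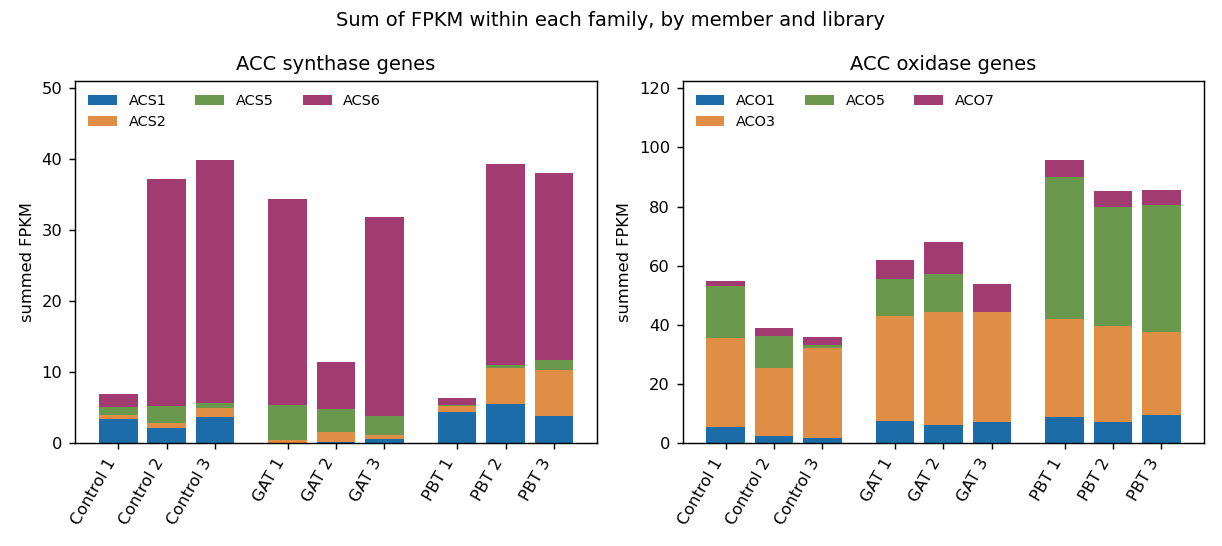
FPKM summed over the 4 ACC synthase genes (left) and 4 ACC oxidase genes (right) in each library, with the part of each member in colour. Each ACC oxidase bar in PBT is higher than each bar in Control and GAT, and ACS6 makes the ACC synthase bars low in 1 library of each group.

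Genes upstream of the ACC synthases, of methionine salvage and of ACC synthase turnover were read by locus where the deposited description held a matching keyword. That left 9 genes, 3 S-adenosylmethionine synthetases, 3 of 7 salvage genes and 3 ETO1-like genes, whose products in Arabidopsis target ACC synthases for degradation. None of the 9 was a DEG in any of the 3 comparisons by limma, beside 8.42%, 4.34% and 6.30% of all entries. The p limit alone was passed by 2 in GAT/Control, by 0 in PBT/Control and by 4 when PBT was set against GAT. Those counts stand beside the 12.0%, 6.37% and 9.37% of all entries given above. At an unadjusted p under 0.05 there were 3, 3 and 4 of the 9, beside 25.1%, 19.8% and 23.3% of all entries. The synthetase LOC_Os01g22010 was at 87.4, 90.0 and 96.8 FPKM in Control, 143, 147 and 146 in GAT and 111, 110 and 113 in PBT. Its groups did not overlap, with a log2 fold change of 0.66 in GAT/Control (SE 0.09, limma adjusted p = 0.00181) and -0.38 in PBT/GAT (limma adjusted p = 0.0333). The most abundant synthetase, LOC_Os05g04510, was at 305, 307 and 281 FPKM in Control, 379, 351 and 353 in GAT and 272, 285 and 285 in PBT, and its PBT/GAT value was -0.36 (limma adjusted p = 0.0255). The third, LOC_Os01g18860, was at 30.1, 39.8 and 28.0 in Control, 25.5, 25.1 and 0.485 in GAT and 0.342, 24.6 and 0.192 in PBT. Control lay above every other library, with low values in 1 GAT and 2 PBT libraries, and no comparison passed the test (limma adjusted p = 0.487, 0.235 and 0.563).

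The acireductone dioxygenase entry LOC_Os10g28350, of methionine salvage, which also holds transcripts of LOC_Os10g28360, was at 56.9, 49.4 and 40.0 FPKM in Control, 86.7, 96.0 and 79.9 in GAT and 42.7, 40.0 and 50.8 in PBT. All GAT libraries were above the others, with 0.84 in GAT/Control (SE 0.16, limma adjusted p = 0.0115) and -0.96 in PBT/GAT (limma adjusted p = 0.00792). The ETO1-like gene LOC_Os11g37520 was at 24.0, 17.1 and 14.8 in Control, 18.0, 16.7 and 19.9 in GAT and 31.6, 33.4 and 29.2 in PBT. Here all PBT libraries were above the others, and the PBT/GAT value was 0.76 (limma adjusted p = 0.0409), below the fold limit. The PBT/Control value was 0.75 (SE 0.19, limma adjusted p = 0.0532).

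**Figure D4:**
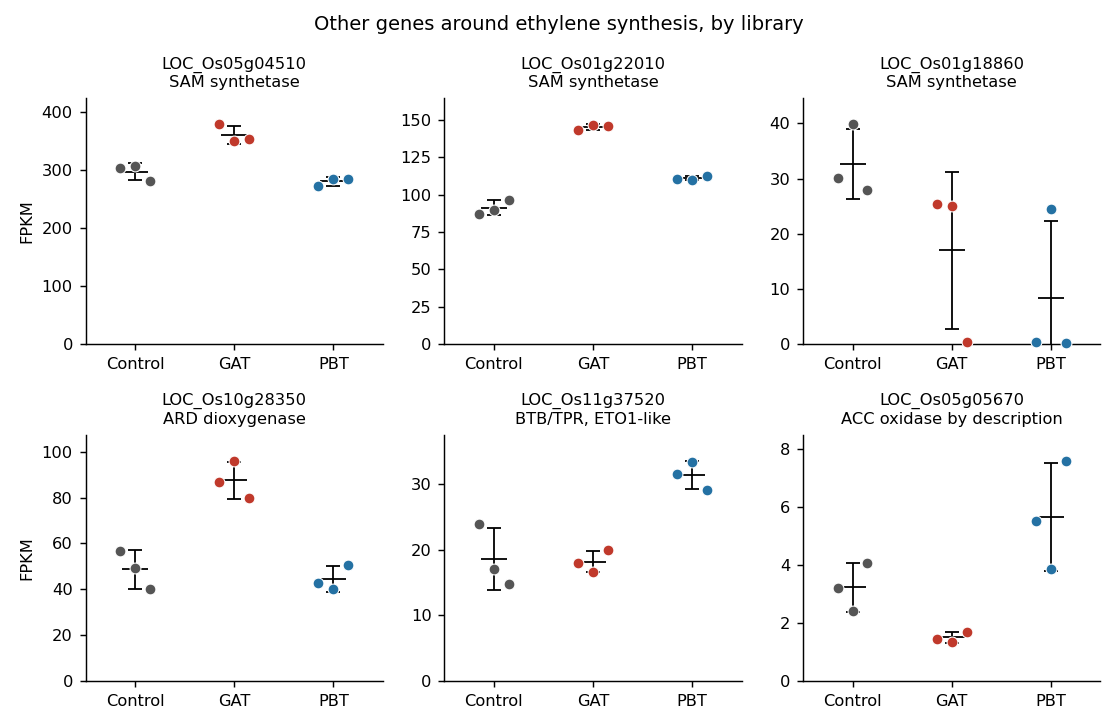
FPKM by library of 6 further genes, the S-adenosylmethionine synthetases, the acireductone dioxygenase, an ETO1-like gene and 1 further entry described as an ACC oxidase, with replicates 1, 2 and 3 from left to right and the mean and SD (n = 3, bars cut at 0) in black. LOC_Os01g22010 and LOC_Os10g28350 were highest in GAT, and LOC_Os11g37520 was highest in PBT.

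A further 11 entries had ACC in their description, all of them as ACC oxidases or oxidase homologs except LOC_Os02g53330, described as an ACC deaminase, and 9 of the 11 passed the filter. LOC_Os05g05670, described as an ACC oxidase and next to ACO5 in the locus numbering, was at 3.21, 2.40 and 4.08 FPKM in Control, 1.46, 1.34 and 1.69 in GAT and 5.53, 3.86 and 7.58 in PBT. It was upregulated in PBT/GAT (1.38, SE 0.26, limma adjusted p = 0.0138), with GAT below Control in every library but short of the limits (-0.74, limma adjusted p = 0.118). LOC_Os03g64280, described as an ACC oxidase homolog, was at 15.5, 13.1 and 12.0 in Control and 13.9, 11.3 and 7.93 in GAT, and was listed at 0 in all 3 PBT libraries. It was called lower in PBT than in Control (limma adjusted p = 8.23e-05) and than in GAT (limma adjusted p = 5.42e-05), with no fold given against a listed 0. Both calls rest on a PBT group listed at 0 throughout, with no spread of its own. As said above, a listed 0 need not mean that no transcript was present. None of the 9 was a DEG in GAT/Control by limma, beside 8.42% of all entries, and 2 had an unadjusted p under 0.05 there, beside the same 25.1%. In PBT/Control 1 was downregulated, beside 1.47% of all entries. In PBT/GAT 1 was upregulated and 1 downregulated, beside 3.48% and 2.82%. The p limit alone was passed by 0, 1 and 3 of the 9, beside 12.0%, 6.37% and 9.37% of all entries.

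The entries nearest in pattern to ACS1 and ACO7 over the 9 libraries were found by the root mean square difference of z-scores of log2(FPKM + 1). For ACS1 they were LOC_Os05g04584 (0.105), LOC_Os04g31120 (0.130) and LOC_Os01g62430 (0.168). Their GAT libraries were lowest, as for ACS1, which follows from how they were picked. For ACO7 they were LOC_Os03g58890 (0.142), LOC_Os09g34230 (0.165) and LOC_Os07g09000 (0.225). Among the members, ACS2 was nearest to ACS1 at 0.940 and ACO3 was nearest to ACO7 at 0.702. Among tested entries with a locus name, ACS2 ranked only 2962 in nearness to ACS1 and ACO3 1511 to ACO7. Neither pair was thus close in pattern.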

How the data were processed

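The authors sequenced poly(A) RNA as paired-end Illumina reads and, per their methods, mapped them with TopHat to version 7 of the MSU rice pseudomolecules and processed the alignments with Cufflinks. The submitters' processing notes name Bowtie 0.12.2 and the builds mm8 and IRGSP-1.0, and the entry identifiers have the prefix StringTie gives. The deposited values are FPKM, normalized by the authors for transcript length and library size. Because FPKM carries no read counts, precision rests on the spread of the 3 libraries per group. The labels name the spray solvent as ethanol and the methods as methanol. Labels do not say that replicates came from separate pots, so p-values measure the spread between these libraries, which may be technical.

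Entries averaging 0.5 FPKM or more over the libraries were kept (22946 of 38652), and log2(FPKM + 1) was fitted in limma 3.58.1 (R 4.3.3) with 3 group means over 9 libraries, a variance trend and two-sided tests, adjusted by Benjamini-Hochberg over all entries kept. The fit was also run on simulated data, in which the changed genes were more abundant than the members called here, so that run does not bear on those calls. The study's own Cuffdiff test needs read alignments, which were not used here. All members reported were named, other pathway genes came from a list of loci, and further entries described as ACC enzymes were named when called. The members and lists were chosen with earlier results of these data known. One further ACC oxidase gene is not reported here, and sums and counts over the members leave it out. Loci without the keyword in their description were left out: 4 salvage genes and 2 methionine synthases. The ACC synthase locus LOC_Os05g25490 was listed at 0 in every library. Genes of close sequence, such as the ACC oxidases, may share reads. Alternatives were pseudocounts of 0.1 and 0.5, other filters and scalings, a replicate block, no trend, other limits, fits of only the groups compared, and each library left out.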

Additional observations from a re-analysis of the deposited data

How the results depend on the processing

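ACS1 remained a DEG in GAT/Control (log2 fold change -3.50 to -1.54) and in PBT/GAT (1.99 to 4.07), and ACO7 in GAT/Control (1.44 to 1.97), in all 19 alternatives that refitted the data. Leaving out a library gave 2 to 3 members called in GAT/Control, 0 to 1 in PBT/Control and 1 to 2 in PBT/GAT. The share of all entries called was not taken for each refit. The refit counts here therefore list which members were called and cannot be set against such a share. In PBT/Control, 0 members were called with a pseudocount of 0.1, no filter, only the groups compared, the replicate block, no variance trend or an adjusted p limit of 0.01, where the reported limma fit had 4 of 8 with an unadjusted p under 0.05 (19.8% of all entries). The call was ACO7 in place of ACO1 with a pseudocount of 0.5, and 2 members, ACO1 and ACO7, were called with quantile normalization or with no fold limit. In PBT/GAT, 1 member, ACS1, was called with a pseudocount of 0.1, no filter, only the groups compared, the replicate block or an adjusted p limit of 0.01. The causes were not tested. Same-numbered libraries did not deviate together (r from -0.037 to 0.0124), which cannot show whether they shared a block. The paper describes a randomized complete block design, and the labels do not place the libraries in blocks. With the replicate block 0 members were called in PBT/Control, ACO1 having a limma adjusted p of 0.0712. In PBT/GAT the block left 1 member called, ACS5 having a limma adjusted p of 0.0932. In GAT/Control the block gave 2 members, ACS1 and ACO7.

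Signs turned only for differences that were not called: ACS2 in GAT/Control was 0.0153 with quantile normalization and -0.34 to 0.0699 with a library left out, ACO5 in GAT/Control was -1.39 to 0.82, and ACS6 was -0.86 to 0.99 in GAT/Control, -1.56 to 0.93 in PBT/Control and -1.38 to 0.59 in PBT/GAT. With 3 libraries per group and no read counts, the wide intervals of ACS6, ACO5 and ACS2 limit what can be told apart.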
